A study of Danio rerio with 13 samples.

Results

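Of 13 zebrafish livers sequenced for RNA, 2 held transcripts of the heart muscle cell, and the 80 genes that set those 2 livers furthest apart from the other 11 are described here. The livers were found by MYH7 (ENSDARG00000079782), which stood above 100 CPM (counts scaled to a library total of 1000000) in tert+/+ liver 1 and in tert+/- liver 5 only. A gene was kept if the lower of these livers reached at least 10 CPM, which 5213 of 32105 gene identifiers did. The kept genes were ranked by that lower value divided by the sum of 0.1 CPM and the highest value among the other 11 livers, and the first 80 were taken. The difference between the 2 livers and the other 11 was thus the means of choosing the genes, so it is given as a description, without a test.

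The study asked how loss of telomerase alters the liver transcriptome. Each library came from the liver of a male AB zebrafish of 3 months, and the labels number the fish one by one. There were 5 wild-type livers (tert+/+), 5 livers heterozygous for a mutated tert gene (tert+/-) and 3 homozygous mutant livers (tert-/-), all in the AB strain and with no treatment named. tert encodes the catalytic subunit of telomerase, the mutation is a nonsense allele, and the transcript level of such an allele does not check the genotype labels. The livers rich in heart genes were therefore 1 of 5 tert+/+ livers, 1 of 5 tert+/- livers and 0 of 3 tert-/- livers.

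A heart muscle cell contracts through sarcomeres, in which thick filaments of myosin slide along thin filaments of actin between Z-discs. Each beat starts when calcium enters the cell, opens the ryanodine receptor of the sarcoplasmic reticulum and binds troponin on the thin filament, and it ends when a calcium pump refills the reticulum. The zebrafish heart has a single atrium and a single ventricle, whose muscle cells carry different myosin heavy chains. Hepatocytes, the main cell of the liver, have no sarcomeres.

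The libraries held 17801374 to 37309651 counts, and the 2 heart-marked livers were the shallowest and the deepest of them. A count of 0 in 1 library allows up to 0.0804 to 0.169 CPM (3 counts of its total). Intervals and such limits cover counting error only. A list of 39 hepatocyte genes took 27.0% and 31.4% of the counts in the 2 livers, within the 6.26% to 37.9% of the others. The 3 livers tert+/+ 5, tert+/- 3 and tert-/- 1 stood apart by another tissue, with 3.44% to 5.06% of counts in an intestine list against at most 0.280% elsewhere. The labels name no batch. Over all 78 pairs of libraries, none agreed within sampling noise.

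The 80 genes together took 2.42% of the counts of tert+/+ liver 1 (431144 counts, exact binomial 95% interval 2.41% to 2.43%) and 1.99% of those of tert+/- liver 5 (741660 counts, 1.98% to 1.99%). In the other 11 livers they took 0.00546% at the lowest, 0.00810% at the median and 0.0127% at the highest. In both livers 5 genes carried over 50% of this material, at 52.8% in each. Of the 80 genes, 46 stayed under 1 CPM in each of the other 11 livers and 4 exceeded 10 CPM in at least 1 of them. In bulk tissue, more cells of a type and more RNA per cell cannot be told apart.

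**Figure D1:**
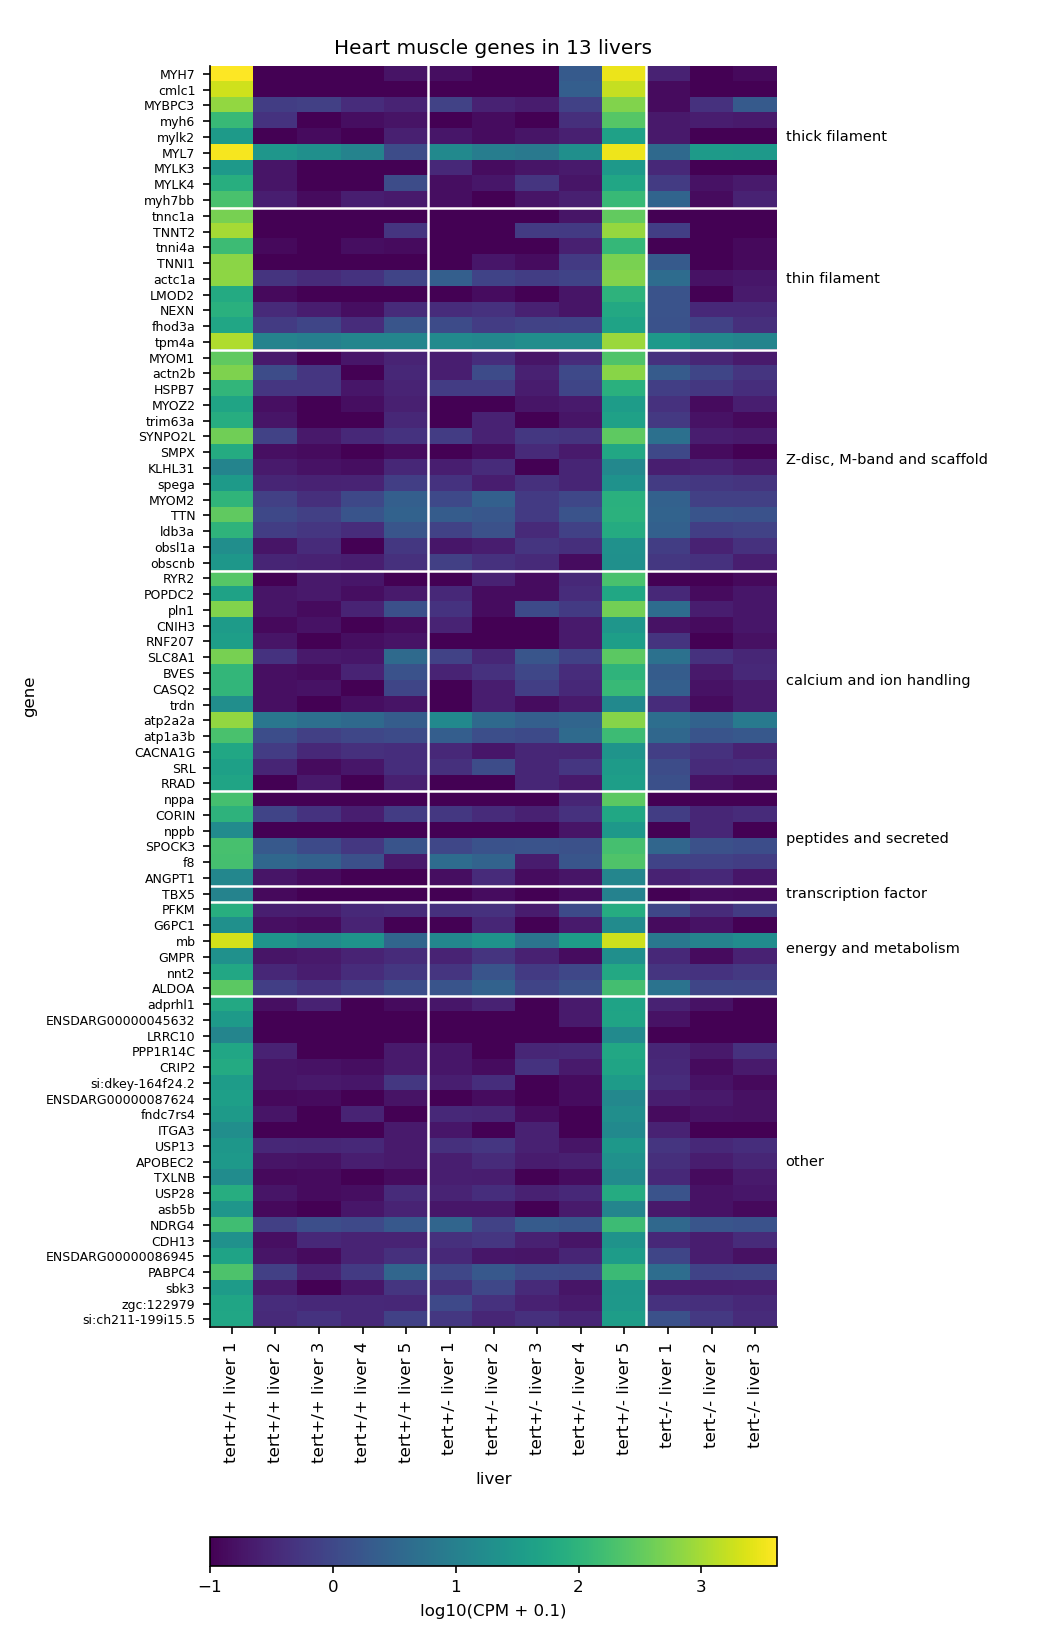
Level of each of the 80 genes (rows, grouped by role and in rank order within a role) in each of the 13 livers (columns, grouped by genotype), as the base 10 logarithm of CPM + 0.1. The columns of tert+/+ liver 1 and tert+/- liver 5 are bright throughout, and among the other 11 livers only MYL7, mb, tpm4a and atp2a2a exceed 10 CPM in any liver.

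Thick filament genes gave the highest levels. MYH7, a myosin heavy chain under the symbol of the human slow and ventricular gene, was at 4123, 0, 0, 0 and 0.0758 CPM in tert+/+ livers 1 to 5. It was at 0.0470, 0, 0, 1.95 and 3039 CPM in tert+/- livers 1 to 5. In tert-/- livers 1 to 3 it was at 0.175, 0 and 0.0296 CPM. The levels were thus all or nearly nothing, with 1 intermediate trace in tert+/- liver 4.

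cmlc1 (ENSDARG00000032976), an alkali light chain of cardiac myosin, reached 1912 and 1616 CPM in the 2 livers. Its next values were 2.27 CPM in tert+/- liver 4 and 0.0350 CPM in tert-/- liver 1, and the remaining 9 livers had no count. MYL7 (ENSDARG00000019096), the regulatory light chain of heart myosin, reached 3526 and 3166 CPM. Unlike cmlc1 it was present in every liver, with 1.099 CPM at the lowest, 15.2 at the median and 32.1 at the highest of the other 11. MYBPC3, the cardiac myosin-binding protein C that ties thick filaments together, was at 738 and 558 CPM and at most 1.93 CPM elsewhere. Kinases that act on myosin light chains were lower, with mylk2 at 32.5 and 43.2 CPM, MYLK3 at 29.6 and 30.0 CPM and MYLK4 at 79.4 and 53.4 CPM.

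Thin filament genes followed, and the troponin complex was complete. tnnc1a, the calcium-binding troponin C, ranked first of all genes, with 458 and 327 CPM against 2 counts in tert+/- liver 4 and none in the other 10. TNNT2, the troponin T that anchors the complex to tropomyosin, was at 1001 and 777 CPM and at most 0.630 CPM elsewhere. The inhibitory subunit came from a pair of genes, TNNI1 at 638 and 477 CPM and tnni4a at 148 and 120 CPM. actc1a, a cardiac actin, was at 673 and 584 CPM and at most 4.23 CPM elsewhere. tpm4a, a tropomyosin that also serves cells without sarcomeres, was at 1184 and 844 CPM and had a liver level of its own, 9.83 CPM at the lowest, 13.5 at the median and 29.4 at the highest of the other 11. LMOD2 (67.4 and 95.9 CPM), NEXN (83.9 and 60.7 CPM) and the formin fhod3a (54.0 and 48.2 CPM), also placed with the thin filament, complete the group.

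Per kilobase of gene length the order of the leading genes was the same in both livers. MYL7 led with 2638 and 2368 CPM per kb, then cmlc1 with 2402 and 2030, and mb, the oxygen-binding myoglobin, with 1367 and 1232. TNNT2 (848 and 659 CPM per kb), MYH7 (611 and 450), actc1a (515 and 447), tpm4a (483 and 344) and tnnc1a (421 and 301) took places 4 to 8. Light chains thus stood above the heavy chain on this scale, although MYH7 and MYL7 had the highest CPM.

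Genes of the Z-disc, the M-band and the scaffold around the sarcomere were 14. actn2b, the alpha-actinin that crosslinks actin at the Z-disc, was the most abundant with 530 and 622 CPM. SYNPO2L, a Z-disc protein, was at 416 and 299 CPM. MYOM1, which bridges thick filaments at the M-band, was at 313 and 224 CPM and its relative MYOM2 at 103 and 86.1 CPM. TTN (ENSDARG00000000563), the giant spring that spans from Z-disc to M-band, was at 308 and 89.0 CPM. HSPB7, a small heat shock protein of heart muscle, was at 111 and 85.0 CPM, ldb3a at 102 and 69.5 CPM, and MYOZ2, a calcineurin-binding Z-disc protein, at 48.7 and 35.7 CPM. The ubiquitin ligase trim63a was at 75.1 and 43.8 CPM, and SMPX and KLHL31 at 67.9 and 57.5 CPM and at 12.1 and 14.3 CPM. The group closed with spega, obsl1a and obscnb, all between 18.6 and 32.2 CPM. None of the 14 exceeded 5.00 CPM in any other liver.

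The calcium cycle was represented from release to removal. RYR2, the release channel of the reticulum, was at 250 and 193 CPM and at most 0.239 CPM elsewhere. CASQ2, which stores calcium in the reticulum, was at 109 and 128 CPM, and trdn, which couples store and channel, at 19.0 and 15.3 CPM. The pump atp2a2a was at 721 and 597 CPM, with a level of 2.16 CPM at the lowest, 3.65 at the median and 15.6 at the highest in the other livers. pln1 was at 548 and 426 CPM; its symbol is close to that of phospholamban, the pump's inhibitor, but the tables used here annotate no function. SLC8A1, the sodium-calcium exchanger of the surface membrane, was at 464 and 283 CPM.

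Membrane genes of heart rhythm were also among the 80. POPDC2 and BVES, popeye proteins that bind cyclic AMP, were at 46.5 and 55.2 CPM and at 116 and 102 CPM. CACNA1G, a T-type calcium channel, was at 56.6 and 24.1 CPM, and RRAD, a small GTPase that restrains calcium channels, at 49.4 and 38.2 CPM. The sodium pump subunit atp1a3b was at 197 and 143 CPM. None of the 27 genes in a list of cardiac ion channels and junctions was among the 80. Of these 27, 10 were higher in both livers than in each of the other 11, beside 9.34% of all genes. Nothing is read from this count. The 10 were led by kcnh6a, a repolarising potassium channel, at 59.5 and 71.0 CPM against at most 2.46 CPM.

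Natriuretic peptides, hormones that stretched heart muscle releases, were close to absent elsewhere. nppa (ENSDARG00000052960) was at 176 and 288 CPM, with 5 counts (0.199 CPM) in tert+/- liver 4 and none in the other 10 livers. nppb was at 16.7 and 28.9 CPM and at most 0.208 CPM elsewhere. CORIN, the protease that cuts the peptides to their active form, was at 95.6 and 55.4 CPM and at most 0.772 CPM elsewhere. The other secreted products were SPOCK3 (189 and 178 CPM), coagulation factor f8 (181 and 221 CPM) and ANGPT1 (13.7 and 13.1 CPM).

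TBX5, a T-box factor needed to form the heart, was the single transcription factor, at 11.7 and 10.9 CPM and at most 0.0439 CPM elsewhere. In the list of 22 cardiac transcription factor genes, 14 were higher in both livers than in each of the others. NKX2-5 was at 39.7 and 23.3 CPM against at most 1.83, and HAND2 at 30.6 and 28.5 CPM against at most 6.16. GATA5 and TBX2 (ENSDARG00000006120) overlapped with the other livers, since the intestine-marked tert-/- liver 1 reached 85.6 CPM of the first and tert+/- liver 4 reached 45.5 CPM of the second. Of all 25747 genes with a count in any liver, 9.34% were higher in both livers than in each of the other 11 and 0.202% were lower, and since the ranking used this contrast nothing is read from such counts.

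Fuel genes were few. mb was at 2036 and 1835 CPM, with 3.11 CPM at the lowest, 15.9 at the median and 36.8 at the highest in the other livers. PFKM, the muscle phosphofructokinase, was at 78.2 and 72.3 CPM, and ALDOA (ENSDARG00000034470), an aldolase, at 280 and 170 CPM. G6PC1 (ENSDARG00000014967) was at 20.6 and 16.7 CPM, under the symbol of the phosphatase that lets the liver release glucose. Another identifier with that symbol was at 1250 and 1476 CPM and reached 2730 CPM elsewhere. Of the 39 genes in the energy list 3 were members. In that list 16 were higher in both livers than in each of the others, beside 9.34% of all genes. Nothing is read from this count. The 16 included ACADVL, a fatty acid dehydrogenase, at 436 and 370 CPM against at most 85.6.

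LRRC10, a leucine-rich protein of heart muscle, had no count in any of the other 11 livers. It was at 12.5 and 15.8 CPM, which is at least 1231-fold above the 0.0101 CPM that 3 counts over all 11 livers would give. adprhl1, a pseudoenzyme of the heart, was at 61.6 and 47.5 CPM. The remaining highly ranked genes were ENSDARG00000045632, which has no symbol here, at 32.2 and 49.2 CPM, PPP1R14C at 54.5 and 59.6 CPM and CRIP2 (ENSDARG00000033201) at 66.1 and 49.5 CPM. The last 3 places went to obsl1a, obscnb and si:ch211-199i15.5, with ranking ratios of 26.8, 26.7 and 26.0, and the next 3 genes outside were PPP2R3A, CKMT2 and LAMB2 with 25.7, 25.02 and 24.5. The list ends where the ranking was stopped, not at a gap.

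Transcripts of the same genes were traceable in some of the other livers. Over all 80 genes, the highest of the other 11 values was that of tert-/- liver 1 for 37 genes and that of tert+/- liver 4 for 13, and their summed shares were 0.0127% and 0.0111%. Among the 20 highest-ranked genes, the highest of the other 11 values belonged to tert+/- liver 4 for 9 genes and to tert-/- liver 1 for 5. In tert+/- liver 4 there were 57 counts of cmlc1, 49 of MYH7, 6 of RYR2, 5 of nppa, 4 of tnni4a and 2 of tnnc1a. The next highest of the other livers had 1, 5, 4, 0, 1 and 0 counts of these genes. For MYH7 and cmlc1 the trace came to 0.0544% and 0.129% of the mean of the 2 livers. The genes named for tert+/- liver 4 are all among the 13 that were highest there. Other sarcomere genes went the other way. MYBPC3 had 17 counts in that liver, actn2b 24 and TNNI1 13, while the highest counts among the rest of the 11 were 65, 57 and 56. In tert-/- liver 1 tpm4a was at 29.4 CPM, ALDOA at 5.53, SLC8A1 at 5.07, SYNPO2L at 5.00 and actc1a at 4.23. Each was the highest value of the other 11 livers. So were pln1 with 119 counts, myh7bb with 86, CASQ2 with 69, TNNI1 with 56, LMOD2 with 41 and TNNT2 with 18. MYH7 gave 5 counts in tert-/- liver 1 and nppa none. That liver also had the highest fast skeletal muscle share, 0.0756%, and one of the 3 intestine-marked values. Whether these go with its traces was not tested.

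Lists of other cell types were read in the same way. Of 31 fast skeletal muscle genes none was a member, and the list took 0.00990% and 0.0134% of the counts in the 2 livers against 0.00723% to 0.0756% elsewhere. The 10 slow skeletal muscle genes took 0.0241% and 0.0210% against at most 0.00349%. That gap came from tnni4a, from TNNC1 (ENSDARG00000037539, 70.28 and 73.8 CPM) and from RYR1 (ENSDARG00000023797, 17.0 and 13.1 CPM), whereas the slow myosins smyhc1 and smyhc2 were at 0.281 CPM or below in both livers.

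Genes of cells that line the heart and its vessels were counted in the same way. Of 19 genes in the endocardium and valve list, none was a member and 14 were higher in both livers than in each of the others, beside 9.34% of all genes, and nothing is read from this count either. NOTCH1 (ENSDARG00000052094), a receptor of the endocardium and other endothelia, was at 46.6 and 40.7 CPM against at most 9.98, and vwf, the platelet-binding factor of endothelium, at 34.0 and 23.0 CPM against at most 4.78. The list took 0.0365% and 0.0303% of the counts, above the 0.00499% to 0.0137% of the others. The share of epicardium and fibroblast genes, 0.394% and 0.408%, lay within the 0.0652% to 0.610% of the others, a sum dominated by FN1. In that list 3 of 17 were higher in both livers, beside the same 9.34%, and nothing is read from it. Red blood cell genes took 0.0694% and 0.128% against 0.00735% to 0.0702%. Of these genes 5 of 17 were higher in both livers, beside the same 9.34%, and nothing is read from it. No gene of the hepatocyte, exocrine pancreas or mitochondrial lists was higher in both livers than in each of the others.

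**Figure D2:**
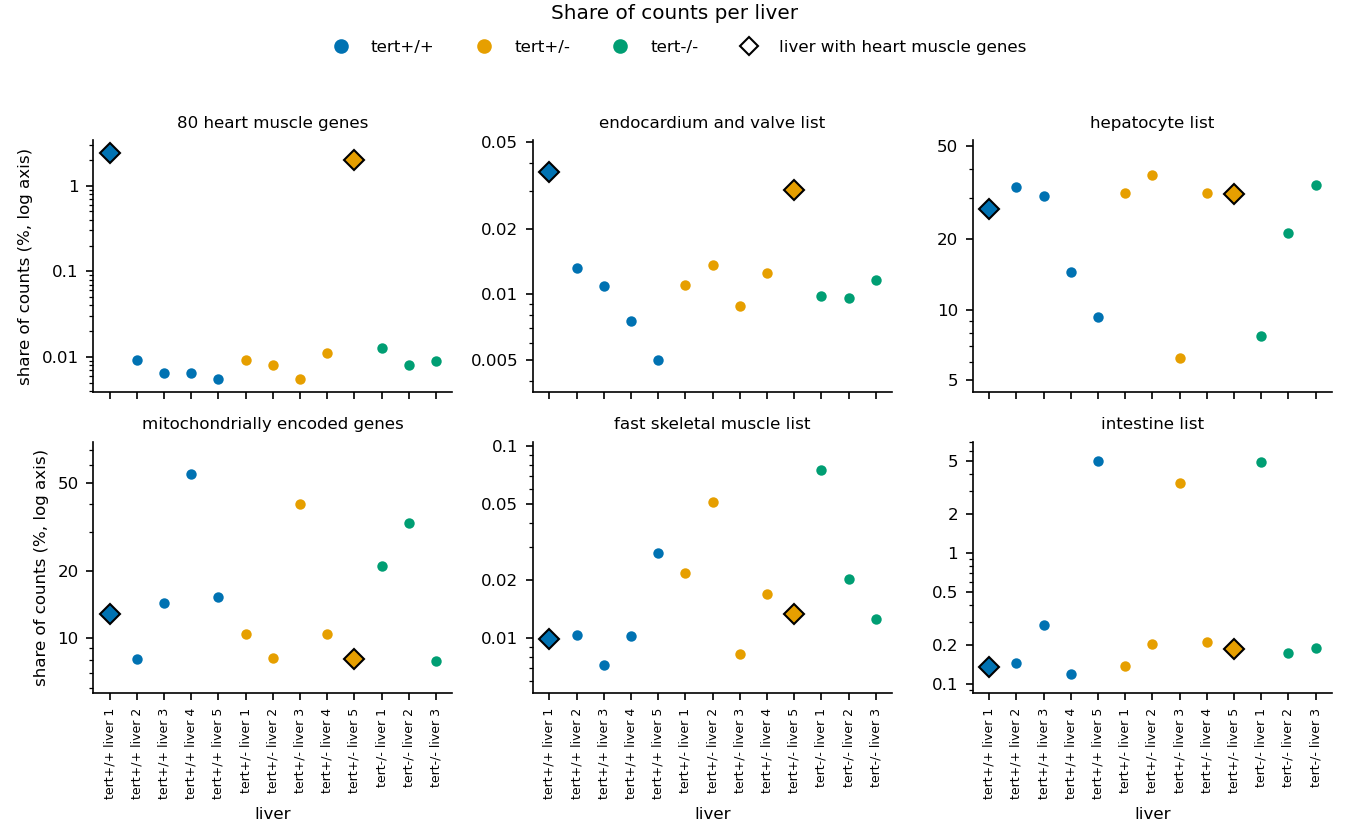
Share of each liver's counts (percent, log axis) taken by the 80 genes and by 5 fixed lists, 1 point per liver, coloured by genotype, with diamonds for tert+/+ liver 1 and tert+/- liver 5. The diamonds lie at 2.42% and 1.99% for the 80 genes and above all circles for the endocardium and valve list, and among the circles for the hepatocyte, mitochondrial, fast skeletal muscle and intestine lists.

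The ratio between the 2 livers did not itself enter the ranking. The ranking did use the lower of their values, which holds back genes much higher in one of them, so the closeness of the ratios is partly set by the choice of genes and is given as a description. There is 1 liver on each side, so intervals are exact binomial and cover counting error only. The median ratio of tert+/+ liver 1 to tert+/- liver 5 was 1.23 over the 80 genes, against 0.953 over all 5213 genes at 10 CPM or more in both, whose 5th to 95th percentiles ran from 0.408 to 2.02. Of the 80 genes, 62 were higher in tert+/+ liver 1 and 18 in tert+/- liver 5, and for 11 the interval included 1. A band of 1.5-fold on either side of the median held 68 genes, with 4 above it and 8 below. The 4 above were TTN (3.46, 95% interval 3.32 to 3.62), ENSDARG00000087624 (2.77), CACNA1G (2.34) and asb5b (2.11). The 8 below included myh6, nppa and nppb. The rest of the 8 were ENSDARG00000045632 (0.654), LMOD2 (0.703), mylk2 (0.752), LRRC10 (0.787) and f8 (0.817). These are in none of the atrial, ventricular or natriuretic peptide lists. Ratio and gene length had a Spearman rho of 0.10 across the 80 genes, which share the same 2 libraries. This rank correlation over all members does not settle whether the longest genes lean one way. Among the longest members, TTN, RYR2, obscnb, spega, CACNA1G, MYLK4 and SLC8A1 lay above the median of 1.23 and fhod3a below it. TTN was both the longest member and the one with the highest ratio. Whether length has a part in its ratio was not tested.

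**Figure D3:**
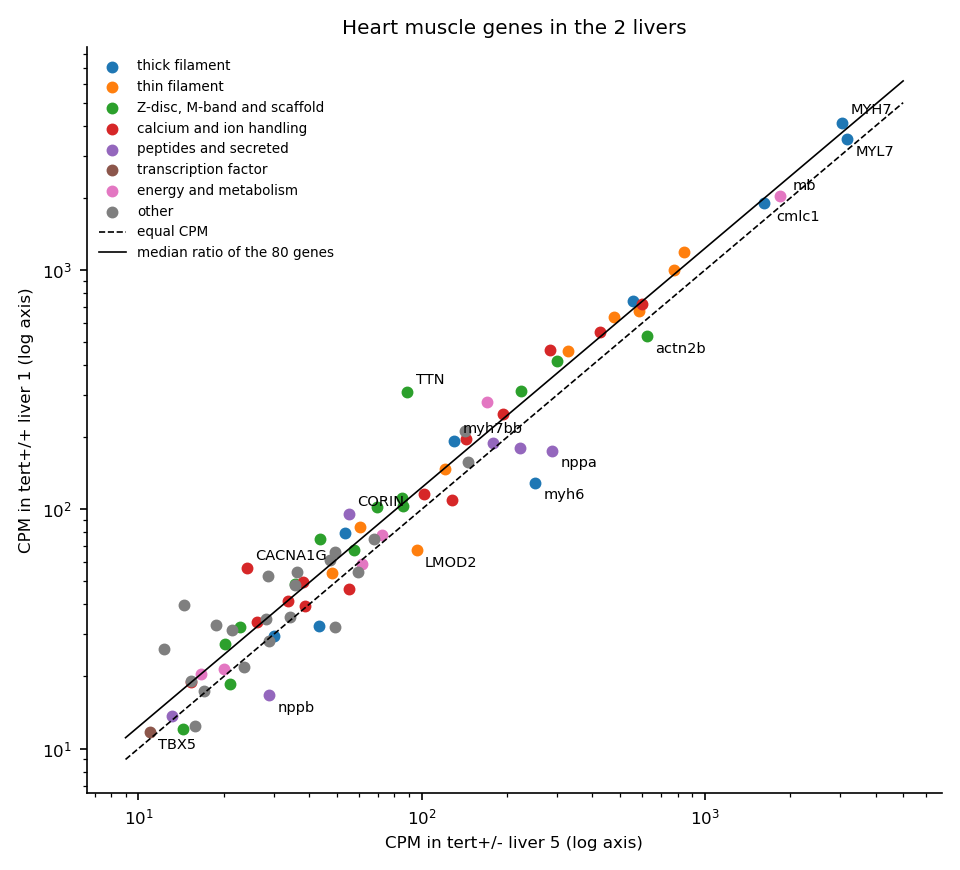
CPM of each of the 80 genes in tert+/- liver 5 (x axis) and tert+/+ liver 1 (y axis), both on log axes, coloured by role, with dashed and solid lines for equal levels and for the median ratio of 1.23. Most genes follow the solid line over the whole range, TTN lies above it, and myh6, nppa, nppb and LMOD2 lie below it.

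Among the members, the lowest ratios were those of the atrial myosin and the natriuretic peptides. Outside the members, other heart lists held lower ratios among their genes at 10 CPM or more in both livers. The lowest were 0.392 in the sarcomere list, 0.374 in the cardiac transcription factor list and 0.354 in the energy list. myh6 (ENSDARG00000090637), whose product is the atrial myosin heavy chain in zebrafish, was at 129 and 252 CPM, a ratio of 0.513 (95% interval 0.490 to 0.537). nppa had a ratio of 0.610 (0.586 to 0.634), nppb of 0.579 (0.508 to 0.659), and smtnl1, of the atrial list but too low to be a member, of 0.552 (0.396 to 0.757). The ventricular list lay on the other side, with MYH7 at 1.36 (1.34 to 1.37), myh7bb at 1.48 (1.42 to 1.55), IRX1 at 1.65 (1.34 to 2.04) and myh7ba at 2.96 (2.80 to 3.13). HEY2, also of the ventricular list, was at 1.44 with an interval that included 1 (0.991 to 2.09).

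The remaining genes of the atrial list were near or above the median. cmlc1 had a ratio of 1.18 and TBX5 of 1.07 (0.900 to 1.27), and neither is confined to the atrium in zebrafish. How far any gene of these lists, nppa and smtnl1 included, marks a chamber in these livers was not tested. A second identifier under the symbol MYH6 (ENSDARG00000079564), not a member because tert-/- liver 1 held 21.8 CPM, was at 154 and 84.3 CPM, a ratio of 1.82 (1.73 to 1.92). Like the rest of the atrial list it was placed there by its symbol, and its ratio lay among those of the ventricular list.

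Within a liver the myosin heavy chains can be set against each other without regard to depth. In tert+/+ liver 1 myh6 gave 2298 counts and MYH7 73398, so that myh6 came to 3.13% of MYH7 (95% interval 3.00% to 3.26%). In tert+/- liver 5 the counts were 9390 and 113368, or 8.28% (8.11% to 8.46%). Per kilobase these shares were 3.56% and 9.41%. The share was 2.65-fold higher in tert+/- liver 5, a difference between 2 fish that counting error does not cover and that has no replicate. Over all 5213 genes, 10.4% had a ratio as low as that of myh6 and 0.882% one as high as that of TTN.

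**Figure D4:**
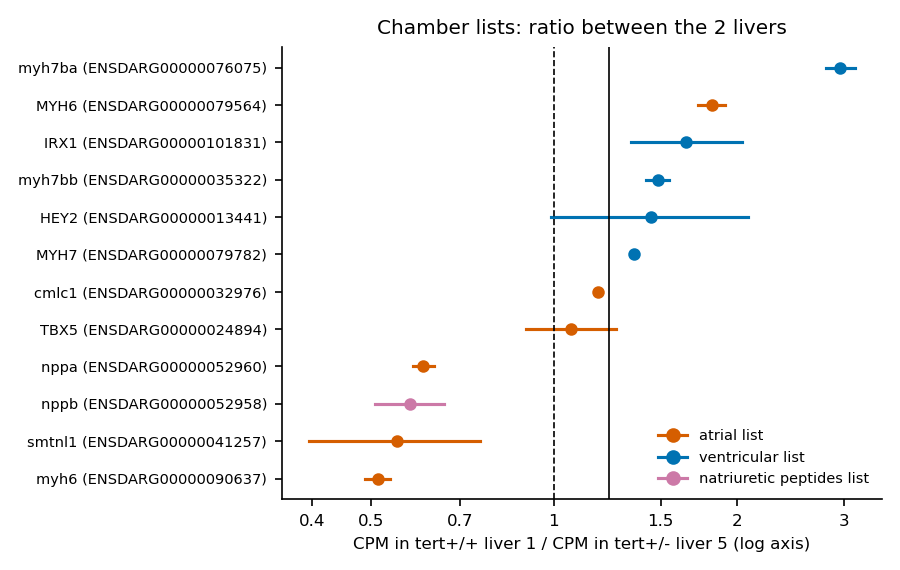
Ratio of CPM in tert+/+ liver 1 to CPM in tert+/- liver 5 (log axis) for the genes of the atrial, ventricular and natriuretic peptide lists that were higher in both livers than in the other 11 and reached at least 1 CPM in each. Points are ratios, bars are 95% counting intervals, the dashed line marks 1 and the solid line the median of 1.23 of the 80 genes. myh6, smtnl1, nppb and nppa lie at 0.513 to 0.610 and the plotted genes of the ventricular list at 1.36 to 2.96. TBX5, cmlc1 and MYH6 (ENSDARG00000079564), also of the atrial list, lie at 1.07, 1.18 and 1.82.

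Other copies bear on how far single genes can be read, since counts of close paralogs may be split between them and the libraries mark no strand. For 13 members another identifier carried the same symbol. TTN (ENSDARG00000028213) was at 1043 and 518 CPM, above the member of that name, and stayed out because another liver held 24.1 CPM. The other identifiers of TNNT2 and TNNI1 were at 0.107 CPM or below in both livers. For SLC8A1 and TNNT2 the heart signal therefore came from 1 copy, and for TTN and MYH6 from both.

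Genotypes were compared with all 13 livers in one fit (edgeR's quasi-likelihood test, Benjamini-Hochberg adjustment over 16376 genes). The filter on low counts kept 52 of the 80 genes with all livers and 32 without the 2 heart-marked livers. Many of the 52 were thus kept through those 2 livers. In none of the pairwise comparisons (each mutant genotype against wild type, and the homozygous against the heterozygous mutants) was a member called, and neither was any other gene (0 of 16376, or 0% of all genes). At an unadjusted p under 0.05 there were 0 members in each comparison. Of all genes, 1.15% were under it for tert-/- and 1.33% for tert+/- against the wild type, and 1.12% between the mutant genotypes. In the fit without the filter, 2 members were under it in tert-/- against the wild type (RYR2 and cmlc1), 0 in tert+/- against the wild type and 2 between the mutant genotypes (RYR2 and f8), where all 25747 genes gave 1.79%, 1.78% and 1.83%. None was called there either. The ranking used these same counts, so nothing is read from the p-values of the members.

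The fold changes of tert-/- against each other genotype were large and carried by the single heart-marked liver of that other genotype. Over all 80 genes, the fit without the filter gave tert-/- livers a median log2 fold change of -5.35 against the wild type (80 lower). Against tert+/- it was -5.08 (80 lower). Every tert-/- liver was among the other 11 of the ranking, so the choice of genes set this direction. For tert+/- against tert+/+ the median was -0.25 (21 higher, 59 lower), and the medians over all genes were 0, 0 and -0.02. Without the 2 heart-marked livers the medians of the members became 0.55, -0.0016 and 0.46, and those of all genes 0, 0.019 and -0.0025. In the other 11 livers 71 of the 80 genes had a median under 1 CPM, so these values rest on few counts. The medians of the members changed little when genes at 0 in a whole group were set to the bound of 3 counts, to 0.55, 0.10 and 0.45. This left out 4 to 7 genes that had at most 3 counts in both groups.

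The members with the smallest p were carried by the same livers. The ranking used these same counts, so these members are given as a description. For tert-/- against the wild type they were cmlc1 with a log2 fold change of -14.47 ± 6.91 (SE), f8 with -5.57 ± 2.72 and CORIN with -5.68 ± 2.81. For tert-/- against tert+/- they were f8 with -5.79 ± 2.75, cmlc1 with -14.17 ± 6.86 and MYH7 with -13.02 ± 6.59. Where each group held 1 of the livers, in tert+/- against tert+/+, they were TTN with -1.77 ± 1.74, CACNA1G with -1.28 ± 1.73 and zgc:122979 with -0.87 ± 1.70. In edgeR the adjusted p of each of these genes rounds to 1.

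Without the 2 livers the fit tested 32 members and called 0 in each comparison. An unadjusted p under 0.05 was reached by 2 members for tert+/- against the wild type and by 0 in the other comparisons. Of the 15861 genes tested in that fit, 2.04% reached it for tert+/- and 1.2% for tert-/- against the wild type, and 1.29% between the mutant genotypes. The 2 were nnt2 with a log2 fold change of 1.51 ± 0.60 (SE) and SRL with 1.78 ± 0.72, and the adjusted p of each rounds to 1 in edgeR. Both stayed at or below 1.49 CPM in those livers.

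**Figure D5:**
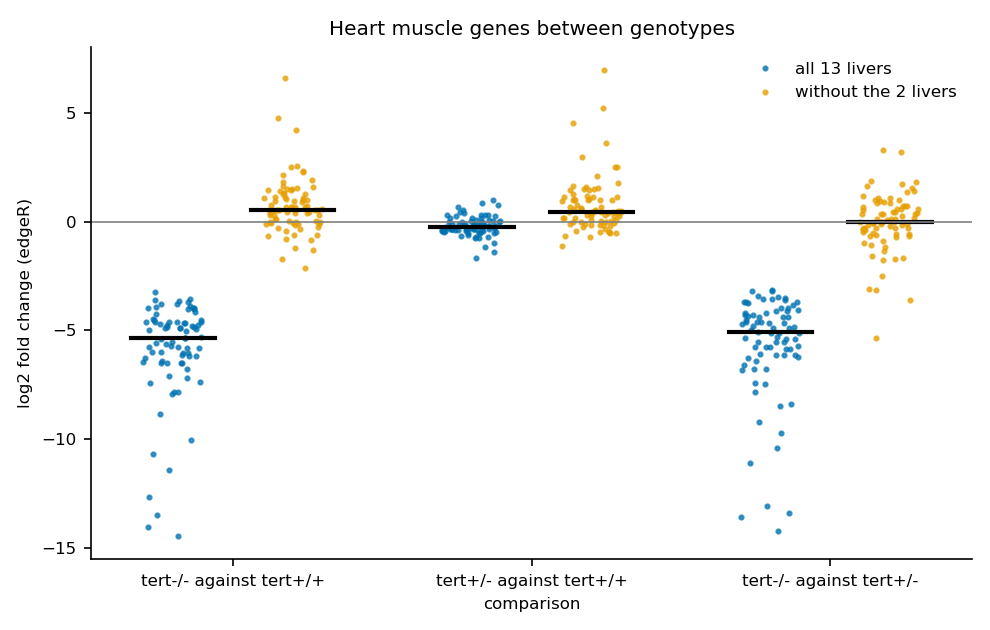
Log2 fold change of each of the 80 genes in the comparisons between genotypes (edgeR without a filter on low counts), with all 13 livers and without tert+/+ liver 1 and tert+/- liver 5, and black bars for the medians. The medians of -5.35 and -5.08 in the comparisons with tert-/- become 0.55 and -0.0016 without the 2 livers, and that of -0.25 in tert+/- against tert+/+ becomes 0.46.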

How the data were processed

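RNA of 13 zebrafish livers was analysed. The authors deposited counts per Ensembl gene and a table of RPKM. GRCz10, featureCounts 1.4.6-p4, STAR 2.4.1d and bcl2fastq 1.8.4 are listed in the processing notes, whereas kallisto is the tool in the paper's methods. The deposited RPKM were not scaled by each liver's own total. Gene lengths they imply, for 2866 genes with 200 counts or more in every liver, had a median CV of 27.8% on own totals and of 0.00188% with the 13 totals cycling from gene to gene, so only lengths were taken from them.

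CPM were computed on the column totals in Python 3.11.15 (pandas 2.3.3, scipy 1.17.1). Of 32105 identifiers 26269 had a symbol, 77 of the 80 among them, some being the human gene's. No coordinates or sequences were used here. The genes and the 19 lists were chosen with earlier results of these data known. Named genes are the 4 markers of the rule, the 20 highest ranks, members of the cardiac lists, ranks 78 to 83 and the 3 smallest p per comparison. Other genes were named after their values were seen.

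Counts were tested in R 4.3.3 with edgeR 4.0.16 (filterByExpr, TMM, common dispersion 0.617, adjusted p threshold 0.05), with genotype as the only term. Medians over all 80 genes used a fit without the filter (prior count 0.125). The scripts were tested on simulated data. For edgeR the simulated counts had a smaller spread than these livers, so they do not show which changes could be called here. p-values measure the spread between these fish. The SE of a log2 fold change is its size divided by the square root of the test's F value. It was not estimated directly by the fit. Alternatives were DESeq2 1.42.0, RLE factors, no filter, only the 2 groups compared, a prior count of 2, other ranking settings and leaving out livers. Leaving out the 3 intestine-marked livers, and DESeq2 without its filter on outlying counts, were added after seeing the data.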

Additional observations from a re-analysis of the deposited data

Results flagged for a closer look

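Within each genotype of 5 livers, the summed shares of counts were searched for a liver far from the rest, over 40 pairs of a genotype and a list. The limit used, Dixon's 95% value, is one that about 1 in 20 groups pass by chance, and the lists share genes with each other and with the heart muscle genes. The 80 genes were chosen for their excess in tert+/+ liver 1 and tert+/- liver 5, so that all 80 of them and their sums (2.42% and 1.99%) lie far above the rest of each genotype was set by the choice of genes, and the heart lists that hold them share in it. tert+/+ liver 1 also stood far above the others of its genotype for the lists of the sarcomere (1.82%), ventricle (0.450%), atrium (0.243%), calcium handling (0.208%), exocrine pancreas (0.0812%), endocardium and valve (0.0365%), slow skeletal muscle (0.0241%) and natriuretic peptides (0.0193%). tert+/- liver 5 did so for the sarcomere (1.49%), ventricle (0.324%), atrium (0.228%), calcium handling (0.175%), natriuretic peptides (0.0318%), endocardium and valve (0.0303%) and slow skeletal muscle (0.0210%) lists. The exocrine pancreas share of tert+/+ liver 1 was exceeded in tert+/- liver 4 (0.0815%) and tert-/- liver 1 (0.844%), and the remaining livers were lower.

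Other livers stood apart by other lists. tert+/+ liver 5 did so for the intestine (5.06%), bulbus and smooth muscle (0.0951%) and fast skeletal muscle (0.0277%) lists, and tert+/+ liver 4 for mitochondrially encoded genes (54.7%). tert+/- liver 3 was apart for mitochondrially encoded genes (40.3%), hepatocytes (6.26%), intestine (3.44%), bulbus and smooth muscle (0.0676%) and epicardium and fibroblasts (0.0652%), and tert+/- liver 1 for stress and immediate early genes (0.291%).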

How the results depend on the processing

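No member was called in any comparison under RLE factors, no filter, only the 2 groups compared, without the 2 heart-marked livers, without the 3 intestine-marked livers or without any 1 liver. DESeq2 gave all 52 tested members an adjusted p of NA in each comparison through its filter on outlying counts. Without that filter, an alternative added after seeing the data, it called 0 members. The lowest adjusted p of a member was then 0.111 for homozygous mutants versus wild type. It was 0.441 for homozygous versus heterozygous mutants and 0.99994 for heterozygous mutants versus wild type. Among all genes, DESeq2 without the filter called 11 of 14153, 2 of 16376 and 0 of 16376 in these comparisons, in that order. With the filter it called 3, 2 and 0 genes. The medians between genotypes moved most. In tert-/- against tert+/+ leaving out single livers gave -6.07 to 0.57, the latter without tert+/+ liver 1, and 0.55 without both. In tert-/- against tert+/- the range was -5.56 to -0.0024, the latter without tert+/- liver 5, and -0.0016 without both. In tert+/- against tert+/+ it was -5.60 without tert+/- liver 5 to 5.76 without tert+/+ liver 1. The median ratio between the 2 livers rose from 1.23 to 1.29 with TMM-scaled totals and to 1.301 without the mitochondrially encoded genes, and the members' share to 2.78% and 2.16% without them. Of the 80 members, 67 stayed with an offset of 1 CPM, 68 and 67 with a lowest level of 5 and 20 CPM, 71 with TMM-scaled totals and 77 without the mitochondrially encoded genes. cmlc1, MYL7 or nppa in place of MYH7 marked the same livers, and the same livers give the same 80 genes by the rule. These markers are themselves among the 80, chosen for their excess in those livers, so this is no separate check. No paired analysis was possible because the labels give each fish its own number and none shared between genotypes. With 1 heart-marked liver in tert+/+, 1 in tert+/- and 0 in tert-/-, the medians between genotypes rest on those livers, and traces of 1 to 3 counts are at the limit of depth.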

Other observations

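Stress and immediate early genes differed between the 2 heart-marked livers. The list of 25 genes took 0.208% of the counts of tert+/+ liver 1 and 0.0824% of those of tert+/- liver 5, and the other 11 livers lay between 0.0362% and 0.291%. All 8 of its genes at 10 CPM or more in both livers had a ratio above 1, with a median of 2.63. Red blood cell genes went the other way, with all 9 measured at that level below 1 and a median ratio of 0.587. The mitochondrially encoded genes took 12.8% and 8.02% of the counts, a median ratio of 1.62. Each is 1 fish against 1 fish, and the part of these in the ratios of the heart genes was not tested.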
